A study of Mus musculus with 6 samples.

Results

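The 10 genes described here are the core of the circadian clock and its output gene Dbp, namely Arntl, Clock, Per1, Per2, Per3, Cry1, Cry2, Nr1d1, Nr1d2 and Dbp. They were taken by name from the deposited table of 17831 genes, and all 10 were present and passed the filter on low counts. The table comes from bulk RNAseq of cultured lung group 2 innate lymphoid cells (ILC2s) from WT mice, whose genotype the labels write as CB57BL/6, and from SIRPα KO mice, labelled SIRPalphatm1Ynliu/J, a germline knockout strain of the receptor SIRPα. Mice were 6 to 8 weeks old in both groups, and both received IL-33 intranasally on 3 days, so no library comes from unchallenged cells. On day 4 the cells were sorted as CD45+, lineage-, CD127+ and ST2+, and they were then kept in rmIL-2 and rmIL-7, for 18 h in one description and for 24 h in another. There are 3 libraries in each group. In their labels WT replicates 1 and 2 share a code (37 and 37V1), as do SIRPα KO replicates 2 and 3 (44 and 44V1), so each group may hold 2 samples rather than 3. The hour of day at which cells were taken is not given in the sources used here, and each value below is a level at a single time of collection, not a rhythm.

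In mammalian cells the clock is a loop of transcription. CLOCK and BMAL1, the product of Arntl, bind together to E-boxes in DNA and switch on the Per and Cry genes, whose proteins return to the nucleus and block their own activators. A second loop is made by the nuclear receptors REV-ERBα and REV-ERBβ, the products of Nr1d1 and Nr1d2, which repress Arntl at ROR elements where RORα activates it. DBP, a direct target of CLOCK and BMAL1, carries the signal to genes with a D-box. The clock is known to shape how innate lymphoid cells in the lung and gut respond to cytokines over the day.

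Between 13980491 and 19051504 reads were counted per library, from cDNA made with 10 pg of RNA. Levels are given as CPM, the reads on a gene scaled to the total of its library, after TMM normalization for library composition, and the factors lay between 0.989 and 1.01. The genotypes were compared by the quasi-likelihood test of edgeR, adjusted by Benjamini-Hochberg over 13623 genes, and a gene is called where the adjusted p is under 0.05. The biological coefficient of variation that edgeR fitted to the libraries of a group was 38.0% for WT against 15.2% for SIRPα KO. It was 27.9% between the WT libraries of code 37, and 42.3% and 41.9% between WT replicate 3 and each of them. Sirpa itself had 6.74 ± 1.87 CPM (SD, n = 3) in WT against 3.09 ± 1.36 CPM (SD, n = 3) in SIRPα KO, so the label was not matched by an absence of reads, and its adjusted p was 0.115.

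The DNA around the start of each gene was read from RefSeq promoters of GRCm38.p6, the build that matches mm10, in windows of 300 bases with 250 before the start and 50 after it. Windows were found for 9 of the 10 genes, all but Per2. Both strands were searched for the E-box CACGTG, the E′-box CACGTT, the D-box TTATGTAA or TTACGTAA, the ROR element TAGGTCA or TGGGTCA, and the cyclic AMP response element TGACGTCA. No motif in this set contains another. The E-box is in the windows of 8.09% of the 27025 genes of that table and in those of 2 of the 9 clock genes. The E′-box is in 5.44% of all genes and in 3 of the 9, the D-box in 1.23% and in 1, the ROR element in 7.35% and in 1, and the cyclic AMP response element in 2.03% and in none. The sites found are printed below in 30 bases, on the strand of the gene, with the motif in capitals, because they are the letters through which these genes are thought to regulate each other. An E′-box on the other strand reads AACGTG.
Arntl ROR element, chr7:113207529-113207558, plus strand: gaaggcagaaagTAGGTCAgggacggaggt
Per1 E-box, chr11:69098771-69098800, plus strand: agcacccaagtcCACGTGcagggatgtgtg
Per3 D-box, chr4:151044852-151044881, minus strand: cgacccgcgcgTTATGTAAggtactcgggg
Per3 D-box, chr4:151044805-151044834, minus strand: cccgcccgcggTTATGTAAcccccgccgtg
Cry1 E-box, chr10:85185097-85185126, minus strand: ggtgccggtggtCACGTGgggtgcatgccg
Cry1 E′-box, chr10:85185116-85185145, minus strand: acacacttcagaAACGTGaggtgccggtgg
Cry2 E′-box, chr2:92434218-92434247, minus strand: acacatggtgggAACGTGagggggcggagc
Nr1d1 E′-box, chr11:98775388-98775417, minus strand: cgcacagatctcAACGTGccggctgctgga

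The Arntl site lies 30 bases after a second annotated start, in the transcribed part of the gene. The Per1 site lies 166 bases before a start that is itself inside the gene span given below. The other sites lie before the start, Nr1d1's at 28 bases, the Cry1 pair at 60 and 79, Per3's at 158 and 205, and Cry2's at 166. Clock and Nr1d2, the only clock genes called between the genotypes, had none of the 5 motifs in their windows. Dbp, a direct target of CLOCK and BMAL1, had none either. This says only that these letters are not in this stretch. For Clock and Nr1d2 the 250 bases before the first start are printed in lower case, since no motif was found to mark. They hold 76.4% G and C for Clock and 63.6% for Nr1d2.
Clock, chr5:76304793-76305042, minus strand: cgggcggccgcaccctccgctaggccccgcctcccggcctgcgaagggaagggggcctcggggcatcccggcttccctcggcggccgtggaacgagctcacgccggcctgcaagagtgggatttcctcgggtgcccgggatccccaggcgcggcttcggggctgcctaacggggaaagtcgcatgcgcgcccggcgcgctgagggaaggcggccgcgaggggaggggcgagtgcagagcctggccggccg
Nr1d2, chr14:18239107-18239356, minus strand: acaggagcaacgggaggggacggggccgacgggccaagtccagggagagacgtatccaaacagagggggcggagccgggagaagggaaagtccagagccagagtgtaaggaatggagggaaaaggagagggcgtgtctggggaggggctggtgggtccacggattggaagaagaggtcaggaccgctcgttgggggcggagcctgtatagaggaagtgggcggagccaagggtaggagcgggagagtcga

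All 10 genes had reads, and their levels spanned a wide range. To set genes beside each other, CPM were divided by the length of the longest annotated transcript in kilobases. In WT libraries the level per kilobase was highest for Cry1, with a mean of 22.3 and a range of 15.8 to 25.8, and lowest for Per2, with a mean of 0.283 and a range of 0 to 0.683. Between them stood Arntl with a mean of 10.2 CPM per kilobase, Nr1d1 with 7.73, Nr1d2 with 5.19, Per1 with 1.89, Cry2 with 1.6, Clock with 1.38, Dbp with 1.30 and Per3 with 0.689. The WT range was 3.27 to 14.0 for Arntl, 4.84 to 11.1 for Nr1d1 and 4.16 to 6.65 for Nr1d2, so these neighbours overlapped, while the lowest Cry1 library was above the highest of Arntl. The lowest Nr1d2 library was in turn above the highest Per1 library, at 2.40, which set the upper 4 genes apart from the lower 6. From Per1 down, the WT ranges of neighbours overlapped. In SIRPα KO libraries Nr1d2, with 10.8 to 12.2 CPM per kilobase, stood above Nr1d1, with 5.67 to 7.82, and its range overlapped that of Arntl, with 10.99 to 14.0. Thus the order of the REV-ERB genes differed between the groups, while Cry1 was highest and Per2 and Per3 were lowest in both.

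**Figure D1:**
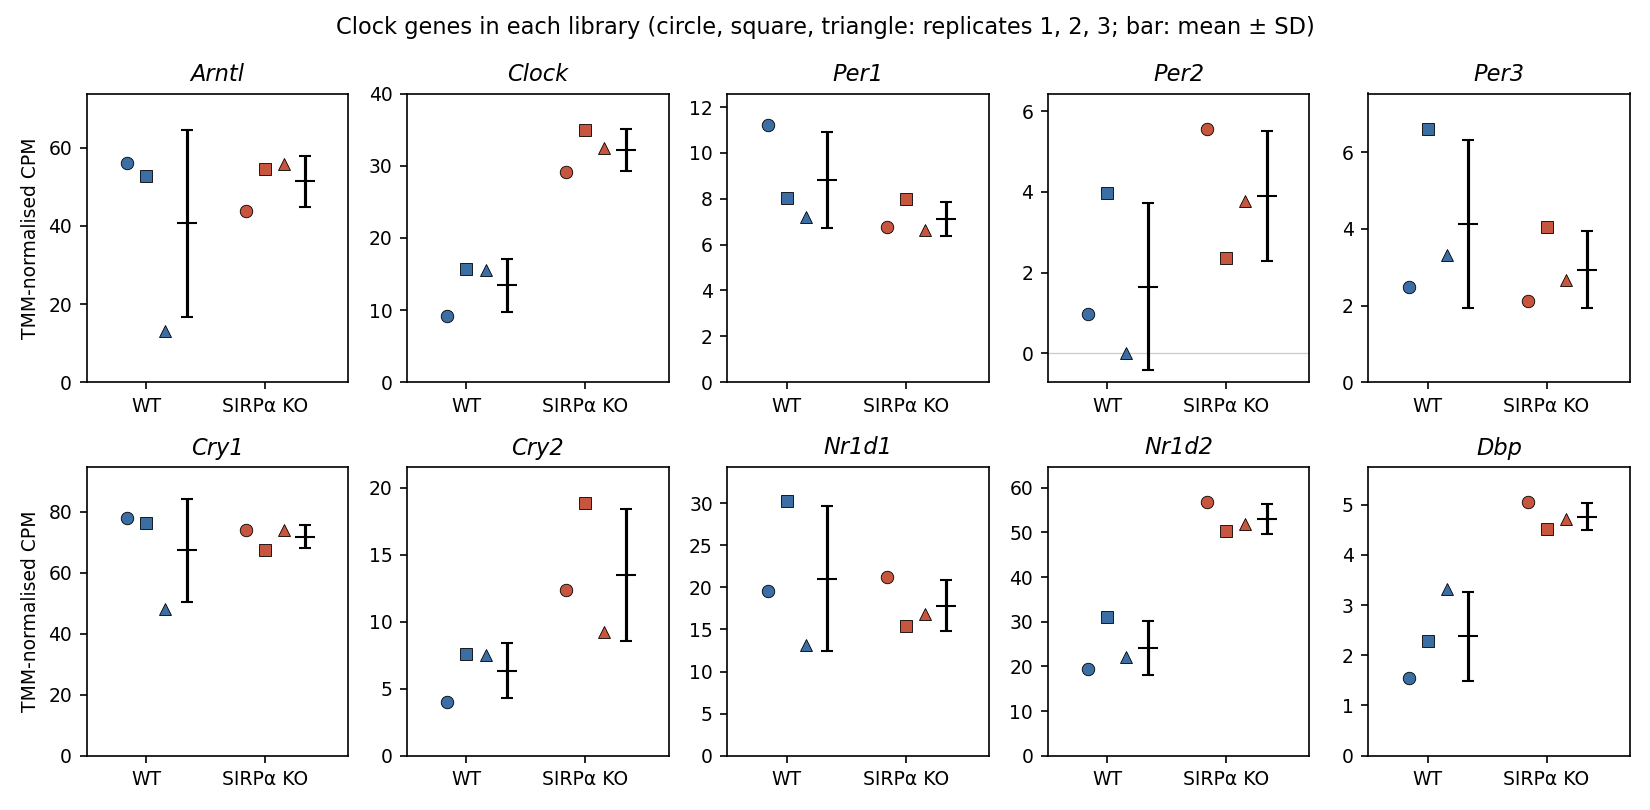
TMM-normalised CPM of the 10 clock genes (vertical axes, each from 0 or, for Per2, just below it) in the 3 WT libraries (blue) and the 3 SIRPα KO libraries (red), with symbols for replicates and bars for the mean ± SD. Clock, Cry2, Nr1d2 and Dbp have every SIRPα KO library above every WT library, and Arntl has WT replicate 3 at 13.0 CPM, far below the other 5 libraries.

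Clock, the DNA-binding partner of BMAL1 and itself a histone acetyltransferase, was higher in SIRPα KO. The gene lies on chromosome 5 from 76209868 to 76304792 of mm10. It had 159, 220 and 234 reads in WT replicates 1, 2 and 3 and 456, 666 and 522 reads in SIRPα KO replicates 1, 2 and 3, or 9.14, 15.6 and 15.5 CPM against 29.1, 34.95 and 32.4 CPM. The groups did not overlap, and the lowest SIRPα KO value was well above the highest WT value. The means were 13.4 ± 3.71 CPM (SD, n = 3) in WT against 32.2 ± 2.91 CPM (SD, n = 3) in SIRPα KO, and the log2 fold change of Clock was 1.26 (standard error 0.24, 95% interval 0.70 to 1.82, adjusted p = 0.0224 from edgeR). The libraries of code 37 differed 1.71-fold in Clock and those of code 44 differed 1.08-fold.

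Arntl, on chromosome 7 from 113207465 to 113314126, encodes the other arm of the activator and did not pass the test. Its levels were 56.0, 52.8 and 13.0 CPM in WT replicates 1, 2 and 3, and 43.9, 54.6 and 55.8 CPM in SIRPα KO replicates 1, 2 and 3. The groups overlapped, and WT replicate 3 alone was low, with 197 reads where the other libraries had 687 to 1040. The log2 fold change of Arntl was 0.34 (95% interval -0.72 to 1.40, adjusted p = 0.640), and without WT replicate 3 it was -0.074. Taken against the mean of WT replicates 1 and 2, Arntl in WT replicate 3 was at -2.06 on the log2 scale, and 71 of 9148 genes (0.776%) were as low there.

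The PER genes encode the repressors that accumulate through the cycle, and none of the 3 passed the test. Per1, on chromosome 11 from 69095217 to 69109960, had 11.2, 8.04 and 7.22 CPM in the WT libraries and 6.78, 7.98 and 6.64 CPM in the SIRPα KO libraries, with a log2 fold change of -0.31 (95% interval -0.92 to 0.31, adjusted p = 0.456). Per3, on chromosome 4 from 151003652 to 151044665, had 2.47, 6.61 and 3.31 CPM in WT against 2.11, 4.04 and 2.67 CPM in SIRPα KO, with a log2 fold change of -0.48 (95% interval -1.59 to 0.63, adjusted p = 0.515). The groups overlapped for both genes, and in Per3 the high WT value was that of replicate 2, without which its log2 fold change was 0.024.

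Per2, on chromosome 1 from 91415982 to 91459324, was the least abundant clock gene in WT. It had 17, 56 and 0 reads in the WT libraries and 87, 45 and 61 reads in the SIRPα KO libraries, or 0.978, 3.98 and 0 CPM against 5.56, 2.36 and 3.78 CPM. A count of 0 in WT replicate 3 allows up to 0.196 CPM, the worth of 3 reads, which covers counting error only. Of 11312 genes with at least 17 reads in each other library, 54 (0.477%) had none in WT replicate 3. The log2 fold change of Per2 was 1.24, with an interval from -1.28 to 3.77 that holds large changes in both directions (adjusted p = 0.461). Single libraries moved it, to 2.95 without WT replicate 2 (adjusted p = 0.118) and to 0.67 without WT replicate 3 (adjusted p = 0.514). The WT libraries of code 37 differed 4.07-fold in Per2, more than in any other clock gene.

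The cryptochromes CRY1 and CRY2 bind the activator with the PER proteins, and the genes differed in their values. Cry1, on chromosome 10 from 85131700 to 85185064, had 77.9, 76.2 and 47.9 CPM in the WT libraries and 73.8, 67.4 and 74.1 CPM in the SIRPα KO libraries, a log2 fold change of 0.09 (standard error 0.20, 95% interval -0.36 to 0.55, adjusted p = 0.781). Its groups overlapped. The interval takes the 3 libraries of a group as separate samples, and with an upper end of 0.55 it does not show an absence of change. Cry2, on chromosome 2 from 92403646 to 92434043, had 3.97, 7.61 and 7.48 CPM in the WT libraries and 12.3, 18.8 and 9.24 CPM in the SIRPα KO libraries. Here too the SIRPα KO values were all above the WT values, but the libraries of code 44 differed 2.04-fold, almost as much as the groups. The log2 fold change of Cry2 was 1.09 (standard error 0.36, 95% interval 0.25 to 1.93, adjusted p = 0.0884), short of the threshold with edgeR, while DESeq2 called it with an adjusted p of 0.0292. Cry2 shares 295 of its 6320 exon bases (4.67%) with D930015M05Rik on the other strand, which had 31 reads over all libraries.

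The REV-ERB genes encode heme-binding repressors of Arntl. Nr1d2, on chromosome 14 from 18204054 to 18239127, was higher in SIRPα KO. It had 337, 436 and 335 reads in the WT libraries and 889, 959 and 836 reads in the SIRPα KO libraries, or 19.4, 31.0 and 22.2 CPM against 56.8, 50.3 and 51.9 CPM. No libraries of the 2 groups overlapped, and within a code the levels differed 1.6-fold for 37 and 1.03-fold for 44. The means were 24.2 ± 6.07 CPM (SD, n = 3) in WT against 53.0 ± 3.40 CPM (SD, n = 3) in SIRPα KO, and the log2 fold change of Nr1d2 was 1.13 (standard error 0.20, 95% interval 0.67 to 1.60, adjusted p = 0.0186 from edgeR). Copies of parts of Nr1d2 elsewhere in the genome were not searched for, and how reads that match several places were handled is not given in the sources used here.

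Nr1d1, on chromosome 11 from 98767932 to 98775333, did not pass the test. It had 19.6, 30.3 and 13.2 CPM in the WT libraries and 21.3, 15.4 and 16.8 CPM in the SIRPα KO libraries, so that the SIRPα KO values lay inside the WT range. The log2 fold change of Nr1d1 was -0.24 (95% interval -0.95 to 0.48, adjusted p = 0.628), and without WT replicate 2 it was 0.12. The 3′ part of Nr1d1 overlaps the thyroid hormone receptor gene Thra on the other strand in 263 of its 3077 exon bases (8.55%), the use of strand in the counting is not stated, and the reads of that stretch cannot be assigned. Thra had 5.20 CPM in WT against 5.89 CPM in SIRPα KO on average, with an adjusted p of 0.711.

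Dbp, on chromosome 7 from 45705088 to 45710203, encodes a PAR bZIP activator whose mRNA follows the CLOCK and BMAL1 complex closely in many tissues. Its read counts were low, with 27, 32 and 50 in the WT libraries and 79, 86 and 76 in the SIRPα KO libraries, or 1.55, 2.28 and 3.31 CPM against 5.05, 4.51 and 4.71 CPM. No WT library reached the lowest SIRPα KO library. The log2 fold change of Dbp was 1.0 (standard error 0.39, 95% interval 0.11 to 1.89), and the adjusted p of 0.123 did not pass the threshold. Without WT replicate 3, the highest WT library, it was called, with a log2 fold change of 1.32 and an adjusted p of 0.0363. Dbp shares 539 of its 2993 exon bases (18.01%) with Sphk2 on the other strand, which had 4557 reads over all libraries. The use of strand in the counting is not stated, so the reads of that stretch cannot be assigned. What part they have in the low Dbp counts was not tested. Sphk2, a sphingosine kinase, had 45.1 ± 9.05 CPM (SD, n = 3) in WT against 47.7 ± 3.08 CPM (SD, n = 3) in SIRPα KO, with overlapping groups and an adjusted p of 0.788.

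Counted over the 10 genes, 2 were called, Clock and Nr1d2, both higher. Among all 13623 genes tested, 1600 were called, or 11.7%, of which 5.94% of the genes tested were higher and 5.81% lower. A share of 11.7% is about 1 gene in 10, so the count of 2 is near the background. At an unadjusted p under 0.05 there were 4 clock genes of 10, beside 32.0% of all genes tested, and in the same 4, Clock, Cry2, Nr1d2 and Dbp, the SIRPα KO libraries lay above all WT libraries. For none did they lie below. Over all genes tested, 42.8% had groups that did not overlap, 21.6% with SIRPα KO above and 21.2% with SIRPα KO below. The median log2 fold change was 0.67 over the 10 genes and -0.03 over all genes tested. The genes did not move as one, since the fitted change was upward for 7 and downward for Per1, Per3 and Nr1d1.

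**Figure D2:**
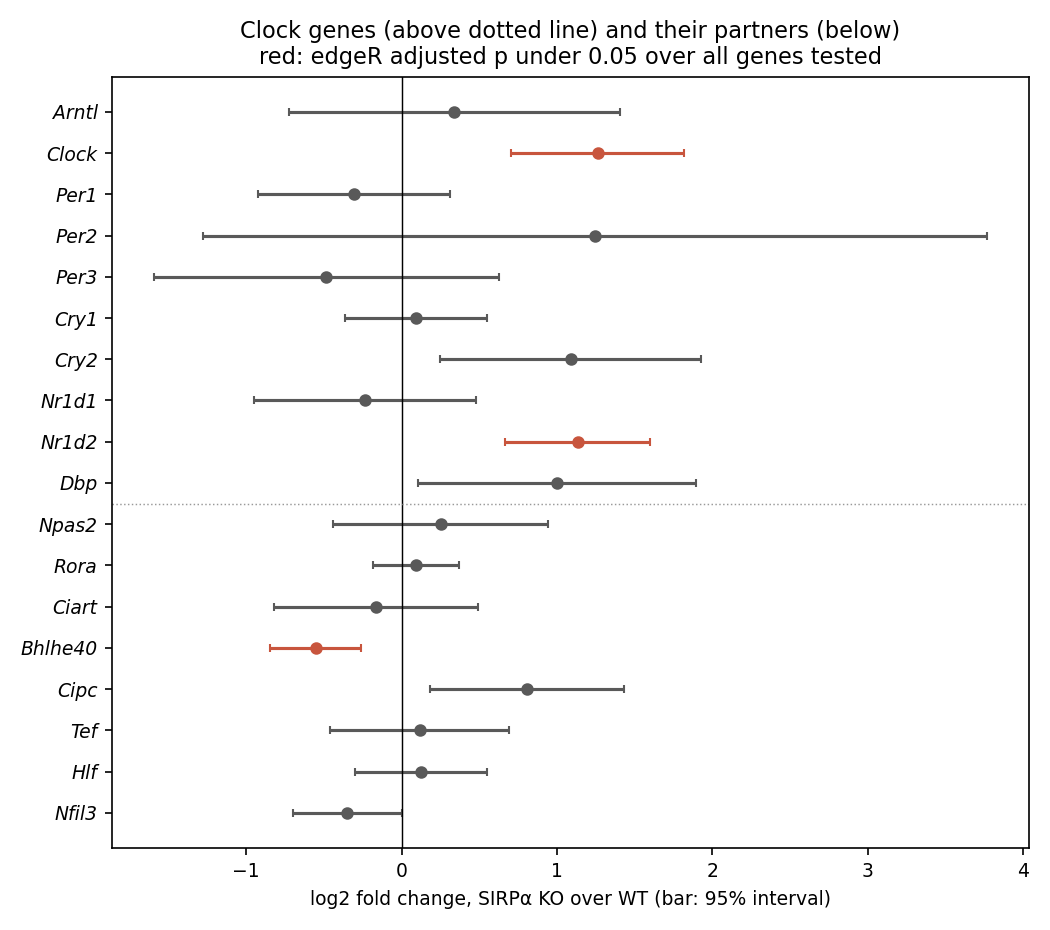
Log2 fold change of SIRPα KO over WT (horizontal axis) with 95% intervals for the 10 clock genes, above the dotted line, and 8 partners and paralogs, below it. Red points have an edgeR adjusted p under 0.05 over all genes tested, and these are Clock and Nr1d2 on the higher side and Bhlhe40 on the lower side.

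The calls depended on how the libraries were treated. When the libraries of one code were summed, leaving 2 against 2, no clock gene was called with edgeR and 3 had an unadjusted p under 0.05. Of all genes 0.0686% were then called, 0.0617% higher, so that hardly any gene passes in that design, and the log2 fold changes of Clock and Nr1d2 were 1.21 for each. Leaving out any 1 SIRPα KO library also left no clock gene called, with adjusted p from 0.0955 to 0.122 for Clock and from 0.0904 to 0.113 for Nr1d2, and 2 or 3 of the 10 at an unadjusted p under 0.05. In those fits 0.112%, 0.12% and 0.12% of all genes were called without SIRPα KO replicate 1, 2 and 3, so a count of 0 in 10 is the background there. DESeq2 on all 6 libraries called 3, Clock, Cry2 and Nr1d2, where it called 26.9% of the genes it tested, 14.9% higher. Without WT replicate 3, edgeR called 3, Clock, Nr1d2 and Dbp, where 18.4% of all genes were called, 10.4% higher.

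**Figure D3:**
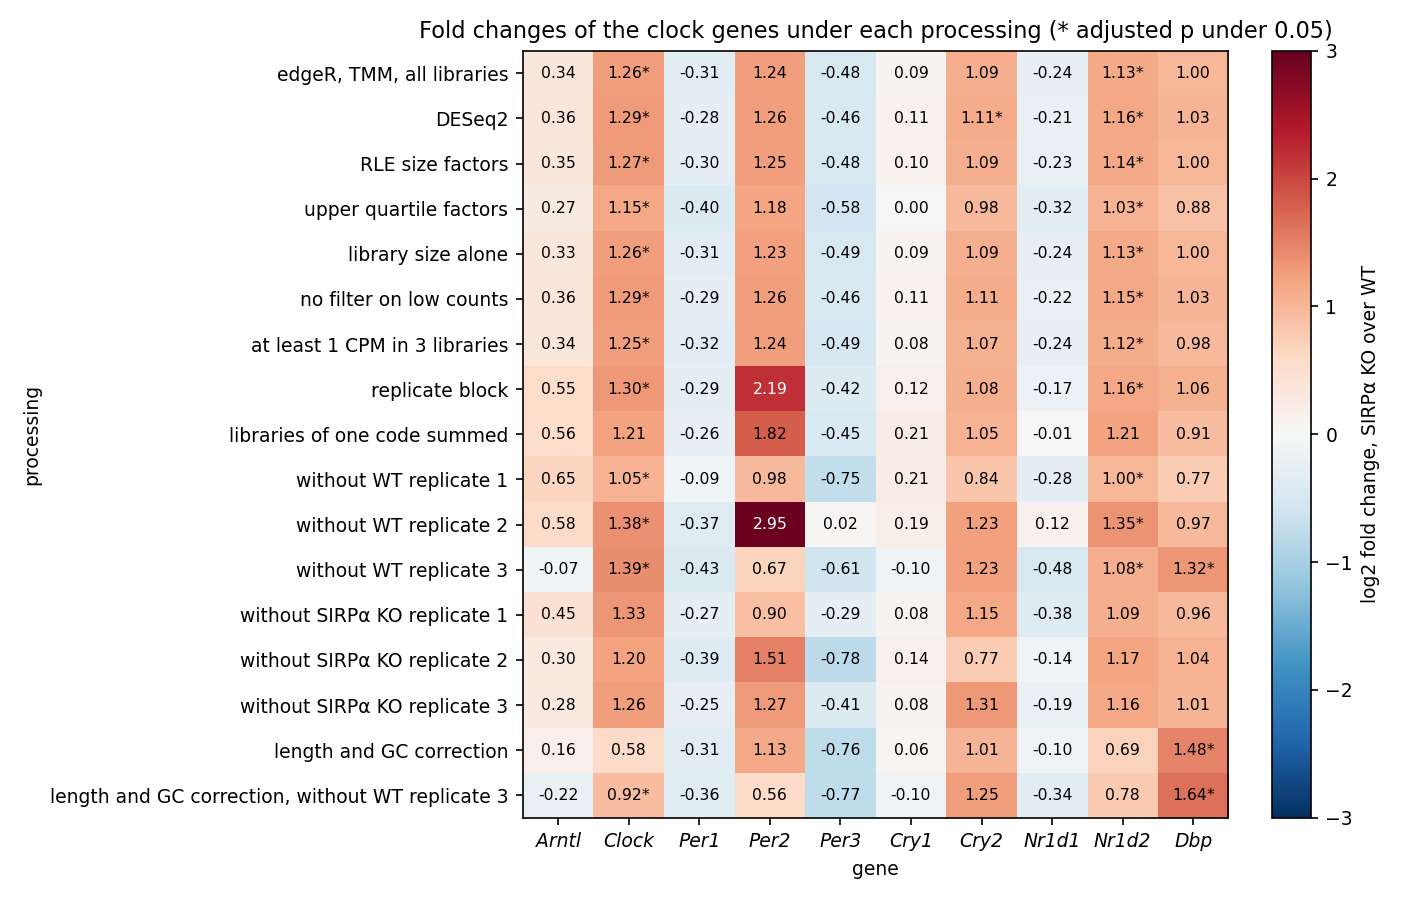
Log2 fold changes of the 10 clock genes (columns) under each way of processing the counts (rows), as numbers and as colours from blue (lower in SIRPα KO) to red (higher), with an asterisk for an adjusted p under 0.05. Clock, Cry2, Nr1d2, Dbp and Per2 are higher in every row, with Clock from 0.58 to 1.39 and Nr1d2 from 0.69 to 1.35, while Arntl, Per3, Cry1 and Nr1d1 change sign in at least one row.

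Fold changes moved with transcript length across the whole table, and Clock has the longest transcript of the 10 genes, at 9744 bases. When genes whose average log2 CPM reached 3 were split into 10 deciles by length, the median log2 fold change went from -0.55 in decile 1, the shortest, to 0.47 in decile 10, which holds Clock. Of the genes in decile 10, 17.7% were called higher and 1.21% lower, and 51 of 911 (5.60%) had a log2 fold change at least as large as that of Clock. Nr1d2, with 4663 bases, is in decile 8, where the median was 0.29, 12.2% were called higher, and 39 of 911 genes (4.28%) reached its value. Per1 is in the same decile with a log2 fold change of -0.31, and Per3, with 5999 bases but too few reads for that ranking, had -0.48. Dbp, with 1837 bases and also too few reads for that ranking, is short and was higher, opposite to the length trend. These transcripts also differ in GC content, at 40.9% for Clock and 41.8% for Nr1d2. It was 59.4% for Per1, 52.4% for Per3 and 61.6% for Dbp. What part length and GC content each had in these values was not tested.

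With an offset in each library for length and GC content of the transcripts, the log2 fold change was 0.58 for Clock (adjusted p = 0.236), 0.69 for Nr1d2 (adjusted p = 0.0633), 1.01 for Cry2 (adjusted p = 0.140) and 1.48 for Dbp (adjusted p = 0.0467). Dbp was then the only clock gene called, against 8.82% of all genes, 4.12% higher, in the same fit. The trend behind the offset was fitted on genes whose average log2 CPM reached 3, and that of Dbp was 1.89. How well the offset holds for genes that low was not tested. When WT replicate 3 was left out as well, which was chosen after seeing the data, Clock (0.92, adjusted p = 0.0362) and Dbp (1.64, adjusted p = 0.0368) were called and Nr1d2 (0.78, adjusted p = 0.05002) just missed the threshold, where 11.5% of all genes were called, 5.57% higher. The order of the values thus changed with the correction, from Clock and Nr1d2 above Dbp to Dbp above both.

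**Figure D4:**
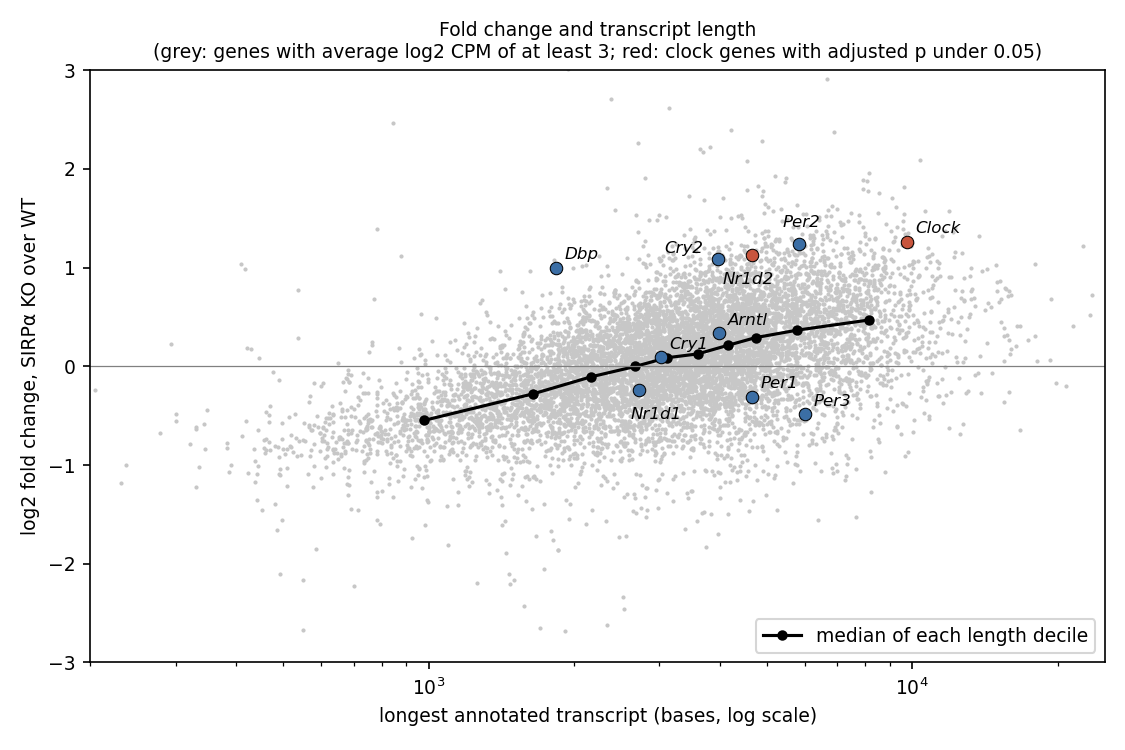
Log2 fold change of SIRPα KO over WT (vertical axis) against the length of the longest annotated transcript (horizontal axis, log scale) for genes whose average log2 CPM reached 3 (grey) and the 10 clock genes (blue, or red where called), with the median of each length decile as a black line. The line rises from -0.55 to 0.47, and Dbp, Cry2, Nr1d2, Per2, Clock and, by less, Arntl lie above it, Cry1 lies on it, and Per1, Per3 and Nr1d1 lie below it.

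Pairs of related genes were also set against each other within each library, where library size has no part. The reads on Nr1d2 over those on Nr1d1 were 0.988, 1.02 and 1.68 in the WT libraries and 2.67, 3.26 and 3.08 in the SIRPα KO libraries. The SIRPα KO ratios were all above the WT ratios, with a mean difference of 1.33 on the log2 scale (p = 0.1 by a two-sided exact permutation test, the smallest that 3 against 3 can give, 0.4 after adjustment over 4 pairs, as for each pair). The ratios are not corrected for transcript length, 4663 bases for Nr1d2 and 2721 for Nr1d1, or for GC content, 41.8% and 56.8%. In the edgeR fit with that correction the log2 fold change was 0.69 for Nr1d2 and -0.098 for Nr1d1. Cry2 over Cry1 was 0.0509, 0.0998 and 0.156 in WT and 0.167, 0.280 and 0.125 in SIRPα KO, with overlap (exact permutation p = 0.2). Clock over Arntl was 0.163, 0.296 and 1.19 in WT and 0.664, 0.640 and 0.581 in SIRPα KO. WT replicate 3 was highest of all 6 in that ratio and WT replicate 1 lowest (exact permutation p = 0.4). Dbp over Hlf, which encodes another PAR bZIP factor, was 0.00718, 0.00878 and 0.0217 in WT and 0.0220, 0.0207 and 0.0199 in SIRPα KO (exact permutation p = 0.3). With WT replicates 1 and 2 far below the other 4 libraries and WT replicate 3 among the SIRPα KO values, the groups overlapped.

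**Figure D5:**
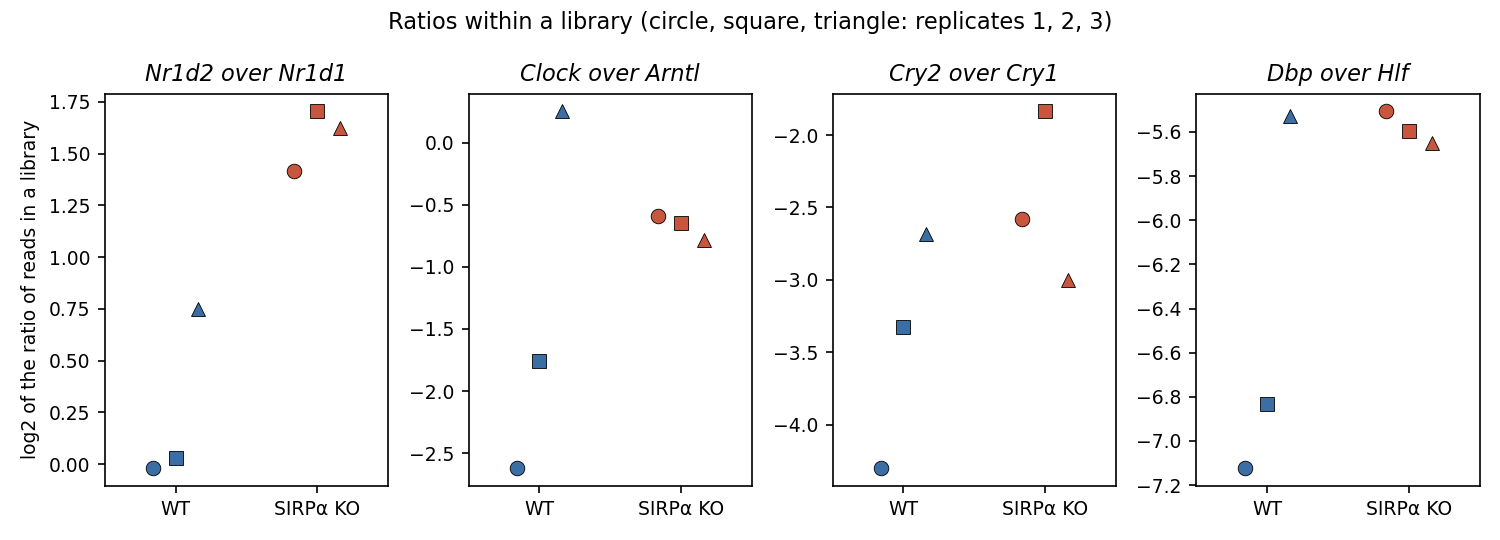
Log2 of the ratio of reads of 2 genes within a library (vertical axes, not starting at 0) for 4 pairs, in WT (blue) and SIRPα KO (red) libraries, with symbols for replicates. The groups are apart for Nr1d2 over Nr1d1 and overlap for the other pairs, in which WT replicate 3 lies nearer to the SIRPα KO libraries than WT replicates 1 and 2 do or, for Clock over Arntl, above them.

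The rest of the clock machinery was followed in a list of 65 other genes, of which 61 were tested. In it, 8 were called (13.1%), 5 higher and 3 lower, beside 11.7% over all genes, 24 of 61 had an unadjusted p under 0.05, beside 32.0% over all genes, and the median log2 fold change was 0.03. Rora, an activator of Arntl and a factor that ILC2s need for their development, was abundant at 224 ± 28.3 CPM (SD, n = 3) in WT against 240 ± 3.596 CPM (SD, n = 3) in SIRPα KO, with a log2 fold change of 0.095 (adjusted p = 0.612). Its longest transcript has 10878 bases, and after the length and GC correction Rora was called and lower, at -0.56 (adjusted p = 0.0190), and at -0.49 (adjusted p = 0.00806) without WT replicate 3 as well. Npas2, a paralog of Clock, had 6.07 CPM in WT against 7.24 CPM in SIRPα KO, with an adjusted p of 0.594. Arntl2 had no reads in 4 of the 6 libraries and was not tested.

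Among the other repressors, Bhlhe40, which competes with CLOCK and BMAL1 for E-boxes and also acts in lymphocyte activation, had 219, 210 and 176 CPM in the WT libraries and 148, 135 and 129 CPM in the SIRPα KO libraries. All SIRPα KO libraries were below all WT libraries, and Bhlhe40 fell by 0.55 on the log2 scale (standard error 0.13, adjusted p = 0.0334). Its paralog Bhlhe41 had 99, 7 and 21 reads in WT and 1, 6 and 7 in SIRPα KO and was too low to be tested. Ciart, a repressor with no paralog, had 6.59 CPM in WT against 5.88 CPM in SIRPα KO (adjusted p = 0.719). Cipc, which binds CLOCK and was named after its values were seen, had 18.8, 18.1 and 9.53 CPM in the WT libraries and 29.1, 24.9 and 27.4 CPM in the SIRPα KO libraries, which were all higher. The log2 fold change of Cipc was 0.81 (adjusted p = 0.0878). DESeq2 called it (adjusted p = 0.0258), as did edgeR without WT replicate 3, with a log2 fold change of 0.56 (adjusted p = 0.0422). Those fits called 26.9% and 18.4% of all genes. No other way of processing the counts called Cipc. With the length and GC correction it was at 0.61 (adjusted p = 0.103), and without WT replicate 3 as well at 0.44 (adjusted p = 0.110). Of the D-box factors related to DBP, Tef had a log2 fold change of 0.12 (adjusted p = 0.777) and Hlf one of 0.12 (adjusted p = 0.672). Nfil3, which represses at the same sites and which innate lymphoid cells need to develop, had 54.5, 47.6 and 63.4 CPM in WT against 42.1, 44.8 and 42.9 CPM in SIRPα KO, with no overlap and an adjusted p of 0.158. With edgeR on all libraries and no correction, none of the 3 D-box factors was called or had an unadjusted p under 0.05. With the length and GC correction Hlf was at -0.31 (adjusted p = 0.0796), and without WT replicate 3 as well it was called, at -0.35 (adjusted p = 0.0415).

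Enzymes and coregulators of clock proteins gave 5 of the 8 calls, from lists that hold 12, 11 and 14 of the 61 genes tested. The shares called were 8.33% of the kinases and phosphatases, 18.2% of the ubiquitin ligases and proteases and 14.3% of the coregulators. Over all genes tested it was 11.7%, and each of these lists had only 1 or 2 calls. Of the 12 kinases and phosphatases, Ppp1ca, a catalytic subunit of protein phosphatase 1, was called and lower, with 1116 ± 85.6 CPM (SD, n = 3) in WT against 820 ± 4.38 CPM (SD, n = 3) in SIRPα KO (log2 fold change -0.44, adjusted p = 0.0257). Of the 11 ubiquitin ligases and proteases, 2 were called and higher, both parts of the SCF ligases that mark PER and other proteins for the proteasome. Fbxw11 had 74.8 CPM in WT against 128 CPM in SIRPα KO (0.78, adjusted p = 0.0497), and Cul1 had 111 CPM and 212 CPM (0.94, adjusted p = 0.0327).

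Of the 14 coregulators, 2 were called and higher. Ep300, the acetyltransferase p300 that works with CLOCK and BMAL1 and at many other promoters, had 33.4, 45.6 and 34.8 CPM in WT against 105, 96.2 and 96.8 CPM in SIRPα KO. Ep300 had the largest log2 fold change of the called clock pathway genes, at 1.39 (standard error 0.16, adjusted p = 0.00746). Tbl1xr1, a part of the corepressor complex through which REV-ERB proteins act, had 86.9 CPM in WT against 165 CPM in SIRPα KO (0.93, adjusted p = 0.0351). Of the 5 clock-controlled genes, Cdkn1a, the cell cycle inhibitor p21, was lower, with 607 CPM in WT against 404 CPM in SIRPα KO (-0.59, adjusted p = 0.0215). Of the 10 tested genes that set the clock from outside, Nr3c1, the glucocorticoid receptor, was higher, with 156 ± 4.30 CPM (SD, n = 3) in WT against 230 ± 12.9 CPM (SD, n = 3) in SIRPα KO (0.56, adjusted p = 0.0201).

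After the length and GC correction, 5 of these 8 were still called, namely Bhlhe40 (-0.66, adjusted p = 0.0111), Cdkn1a (-0.36, adjusted p = 0.0366), Cul1 (0.71, adjusted p = 0.0348), Ep300 (0.97, adjusted p = 0.0119) and Fbxw11 (0.54, adjusted p = 0.0467). Tbl1xr1 (0.35, adjusted p = 0.131), Nr3c1 (-0.02, adjusted p = 0.954) and Ppp1ca (-0.01, adjusted p = 0.946) were not. The count in that fit was again 8 of 61, where 8.82% of all genes were called, beside 11.7% without the correction. Rora, Ncor1 (-0.71, adjusted p = 0.0487) and Tsc22d3 (-0.60, adjusted p = 0.0435) were newly called and lower, the last 2 named after their values were seen. With edgeR and no correction, none of the first 8 was called when libraries of one code were summed. The same held when any 1 SIRPα KO library was left out. In those fits 10 to 17 genes were called in the whole table. Without WT replicate 1, 1111 genes were called and 4 of the first 8 kept their call. Bhlhe40 (adjusted p = 0.0687), Cul1 (adjusted p = 0.0529), Fbxw11 (adjusted p = 0.0586) and Tbl1xr1 (adjusted p = 0.0755) did not.

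The libraries also differed in markers of cells. All 12 ILC2 markers were in the table and tested, with a summed level of 14400 to 15700 CPM in WT against 20100 to 20600 CPM in SIRPα KO. Of the 12, Il2ra (log2 fold change 0.91) and Il5 (0.49) were called higher, and Id2 (-0.65) and Thy1 (-2.06) lower. The 6 NK cell and ILC1 markers summed to 18 to 25.4 CPM in WT against 1.85 to 4.04 CPM in SIRPα KO, the 6 T cell markers in the table to 18.6 to 23.5 and 4.77 to 5.56 CPM, and the 5 B cell markers in the table to 32.1 to 40.5 and 14.5 to 16.1 CPM. Summed myeloid markers, at 45.2 to 121 CPM in WT against 77.2 to 121 CPM in SIRPα KO, overlapped between the groups, as did those of mast cells and basophils (7.07 to 20.9 and 0.992 to 10.8 CPM) and of structural lung cells (60.6 to 85.9 and 46.8 to 107 CPM). The defining markers Cd8a, Pax5, Cdh5, Col1a1 and Pdgfra were not analysed here. The sums of ILC2, NK cell and ILC1, T cell and B cell markers did not overlap between the groups. Of the 6 T cell markers, only 2 passed the filter on low counts. Clock, Cry2, Nr1d2 and Dbp did not overlap either, nor did 42.8% of all genes tested. What part the marker differences have in the clock gene values was not tested. Fewer cells of a type and less RNA per cell cannot be told apart in such libraries.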

How the data were processed

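ILC2s from 3 WT and 3 SIRPα KO libraries were profiled by bulk RNAseq. The authors aligned reads with STAR to mm10 with GENCODE M21 in Partek, and the submitters' processing notes name Partek 10.0 and STAR 2.7.8. They deposited estimated counts per gene, not scaled for library size. The handling of strand and of shared reads is not given in the sources used here. Each gene is a column, of which 123 were mapped by name, and the other 17708 hold the same unit.

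Estimated counts were rounded to whole numbers, filtered with filterByExpr (10 reads in a library of median size, 15 in total), scaled by TMM and tested on genotype with edgeR 4.0.16 (R 4.3.3, limma 3.58.1), with Benjamini-Hochberg adjustment over all genes tested and a threshold of 0.05. DESeq2 1.42.0 was an alternative, and genes to which it gave no adjusted p were left out of its count. Nothing in the sources says that the libraries of a group came from separate mice, so p-values measure the spread between libraries. The correction for length and GC content used a spline with 5 degrees of freedom per library over 9047 genes whose average log2 CPM reached 3. GENCODE M21 held the symbols of 17400 genes, and those of 214 more as synonyms. Ratios were compared by exact permutation with scipy 1.17.1, and plots were drawn with matplotlib 3.10.9.

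The 10 genes and the other lists were chosen with earlier results of these data known. All 10 are named, and of the other clock pathway genes those called and the paralogs and direct partners of the 10, apart from a result that is left out. On simulated data, edgeR recovered 32 of 100 genes changed by 1 on the log2 scale and 84 of 100 changed by 2, and called 10 unchanged genes of 13215. DESeq2 recovered 54 and 90 and called 42. The simulated libraries were independent, and each gene had the same dispersion in both groups. They held no trend with transcript length or GC content. The real groups differ in spread, show a length trend and may share samples within a code, so these rates may not hold for them. Other scalings and filters, a replicate block, libraries of one code summed and each library left out were tried.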

Additional observations from a re-analysis of the deposited data

How the results depend on the processing

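Over the 10 clock genes and 16 alternatives, 139 of 160 values kept their direction and their side of the threshold, 11 were no longer past it, 4 were newly past it and 6 changed sign. The 6 were Arntl (-0.074 on the log2 scale without WT replicate 3, -0.22 with the length and GC correction as well), Cry1 (-0.096 and -0.095 in those), Per3 (0.024 without WT replicate 2) and Nr1d1 (0.12 without WT replicate 2). With 1 library left out they ranged from -0.074 to 0.65, -0.096 to 0.21, -0.78 to 0.024 and -0.48 to 0.12. With upper quartile factors Cry1 was at 0.00, and the median of all genes shifted to -0.13. The count of 1600 genes called became 3214 with DESeq2, 3054 at an adjusted p under 0.1, 10 with libraries of one code summed and 16 to 2606 with 1 library left out. The count of 2 clock genes became 0 with libraries of one code summed, 1 with the length and GC correction and 0 to 3 with 1 library left out. The count of 8 other clock pathway genes became 19 with DESeq2, 18 at an adjusted p under 0.1, 0 with libraries of one code summed and 0 to 18 with 1 library left out. A count of 0 came from edgeR, with 2 or 3 clock genes at an unadjusted p under 0.05. Without WT replicate 1, 2 or 3, 1111, 2309 and 2606 genes were called, and without any 1 SIRPα KO library 16 or 17. Why the counts moved was not tested.

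Libraries of one number did not deviate together (correlations -0.03, 0.05 and 0.01), so they share only a number. With a replicate block, 1118 genes, 2 clock genes and 6 other clock pathway genes were called. Per2 and Per3, with 0 to 93 reads in a library, and Arntl, with 197 to 1040, have wide intervals, and what part read depth has in them was not tested.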
